A study of Rattus norvegicus with 24 samples.

Results

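The genes of glycolysis and of the response to low oxygen were followed through the cartilage zones of the growing tibia of the rat. The 36 members were a fixed list of enzymes, oxygen sensors and targets of hypoxia-inducible factors, each read from its probe set of highest mean signal over all arrays. A probe set was found for 35 of the 36, among 14218 genes named in the series, and Pkm was not analysed here. Of these 35, 32 lay above the array median in at least 4 arrays and were tested, while Hk2 and Pdk2 were too dim and Gapdh was present only on control probe sets, so those 3 have values and no test.

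The study cut the upper tibia of rats aged 1 week into 60 µm frozen sections, dissected the zones by hand and hybridised 24 Affymetrix arrays. Groups were epiphyseal cartilage (n = 4, animals 1, 2, 4 and 5) and the resting, proliferative, transition and hypertrophic zones (n = 5 each, animals 1 to 5), and none of the rats was castrated. The strain is not named in the labels. Male rats are named in the labels of 3 zones (resting, proliferative, hypertrophic), whereas the labels of epiphyseal and transition arrays have another wording and leave out the sex. A batch that follows this wording cannot be told apart from the zone in comparisons with epiphyseal or transition arrays. Each value is a MAS5 signal on a linear scale, and the trimmed mean signal was nearly the same in every array. The array medians ran from 135.3 to 244.6, and the number of arrays limits the precision. In these bulk samples, fewer cells of a type and less RNA per cell cannot be told apart. Summed chondrocyte markers lay between 209745 and 560714 in all 24 arrays, and 8 of the 10 listed markers had a probe set.

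Cartilage has no blood vessels of its own, and growth plate chondrocytes live at low oxygen and take much of their energy from glycolysis. Under normal oxygen, prolyl hydroxylases encoded by Egln genes mark the alpha subunits of hypoxia-inducible factors (Hif1a and Epas1) for degradation. At low oxygen these subunits persist and switch on glycolytic enzymes, glucose uptake, mitophagy receptors such as Bnip3 and vascular signals. In the growth plate, resting cells give way to columns of dividing cells, then to enlarging hypertrophic cells that border on vascularised bone.

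Of the 32 members tested, 28 passed limma's F test over the 5 zones (adjusted p below 0.05), where 55.6% of all tested probe sets did so. Across the 3 zones whose labels share a wording, 29 of 32 members differed, against a background of 47.9%. Egln3 and Bhlhe40 passed neither test, with limma adjusted p = 0.961 and 0.497 across 5 zones. Pfkl and Mxi1 passed only across the 3 zones, and Ndrg1 only across the 5. The mean log2 signal of a member spanned a median range of 1.17 between its highest and lowest zone, against 0.87 over all tested probe sets. Among the 35 members with values, the highest zone mean lay in the proliferative zone for 13, the resting zone for 11, the hypertrophic zone for 7 and the transition zone for 4. For no member was epiphyseal cartilage the highest.

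**Figure D1:**
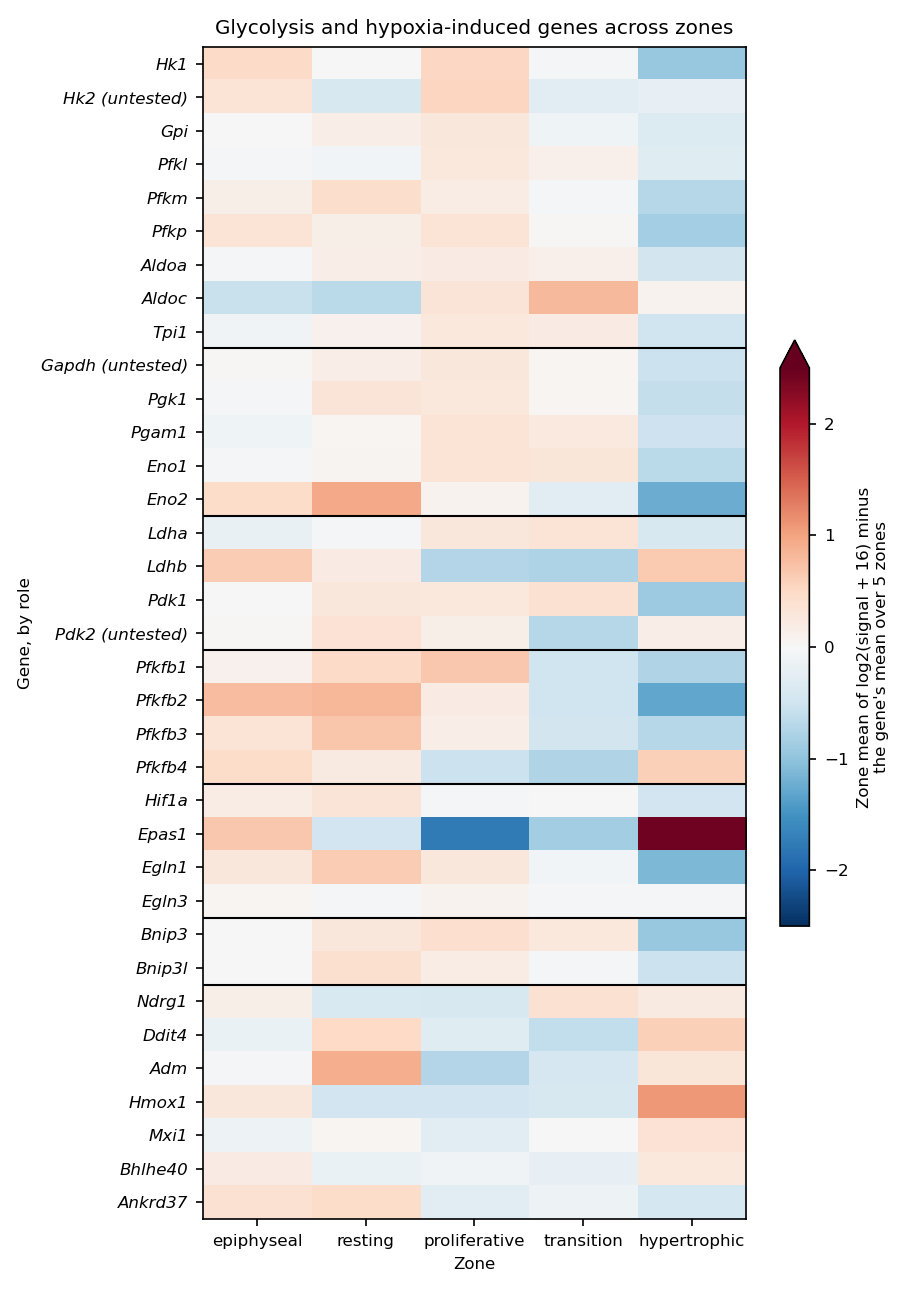
Zone means of log2(signal + 16) for 35 members, each as a difference from the member's own mean over the 5 zones (colour, log2 units), with zones from left to right and genes grouped by role from top to bottom. Most glycolytic enzymes are blue in the hypertrophic column, while Epas1, Hmox1, Pfkfb4, Ldhb and Ddit4 are red there.

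The hypertrophic zone stood apart from the zones before it. Of the 32 members, 20 fell and 7 rose in the hypertrophic zone relative to the proliferative zone, by limma's moderated test at an adjusted p below 0.05, where 20.5% of all tested probe sets fell and 16.9% rose (37.4% in either direction). Enzymes that carry sugar down to lactate made up most of the falls, and the alternative isoforms Ldhb and Pfkfb4, the factor Epas1 and Hmox1, Ddit4, Mxi1 and Ndrg1 made up the rises. The median log2 fold change over the members was -0.67, against -0.05 over all tested probe sets. A fold of at least 2 was reached by 9 of the members that fell and 4 of those that rose, against backgrounds of 9.07% and 9.59%. Pfkfb1 and Pfkfb2 lay below the array median in every hypertrophic array and passed the filter through other zones, so their falls are no support. Without them 18 members fell, 7 of them at least 2-fold. In 17 members the 5 hypertrophic arrays did not overlap the 5 proliferative arrays, 12 of them lower and 5 higher, where 9.98% and 9.77% of probe sets separated in those directions. Scaling the arrays to one median left 20 falls and 5 rises, with Mxi1 and Ndrg1 no longer called, and moved the median of all probe sets to -0.15 and that of the members to -0.78. All fold changes were taken after adding 16 to each signal, which makes those of dim genes too small.

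**Figure D2:**
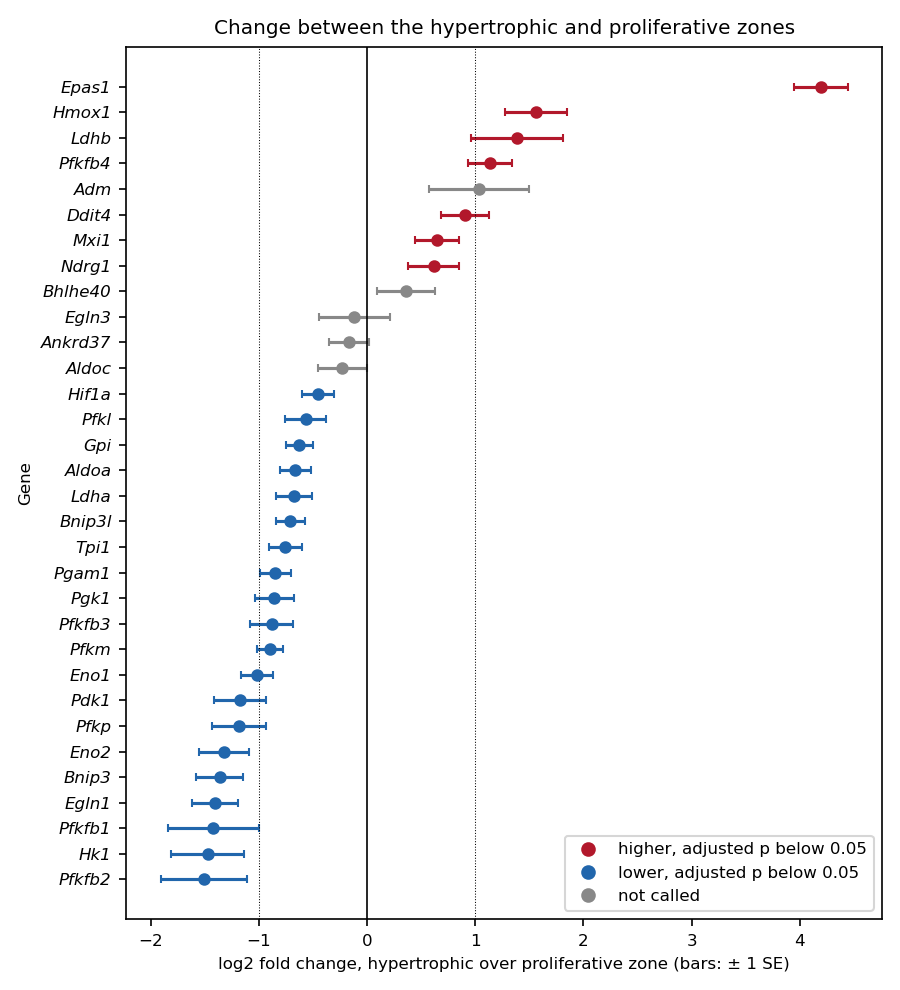
Log2 fold change of each of the 32 tested members, hypertrophic over proliferative zone, as points with bars of ± 1 SE from limma (n = 5 arrays a zone), with dotted lines at a 2-fold change. Epas1 lies far to the right at 4.20, and the 6 other rises lie between 0.62 and 1.56. The 20 falls include the dim Pfkfb1 and Pfkfb2, and the 18 without them lie between -0.45 and -1.47.

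The letters before the start sites of these genes were read beside the values, because hypoxia-inducible factors recognise a core of ACGTG or GCGTG. RefSeq promoter windows on the GRCr8 assembly, reaching from 250 bases before to 50 bases after a start, were found for 31 of the 35 members, with several windows for 3 of them. ACGTG on either strand occurred in 20 of the 35 windows (57.1%) and GCGTG in 14 of the 35. The backgrounds were 19.3% and 29.7% of all 33469 rat windows of that length, and 19.9% and 34.7% of protein-coding windows. The GCGTG count thus lay much nearer to its protein-coding background than the ACGTG count did. One or the other was present in 68.6% of the members' windows, 41.6% of all windows and 45.8% of the 21842 windows of protein-coding genes. At least 1 of these 5-letter strings was present in 23 of the 31 members. The palindrome CACGTG holds ACGTG on both strands and is counted on each. A match is a string of letters and not a measured binding site. The windows of Bnip3, Hif1a and Pfkfb3, whose signals were lower in the hypertrophic zone, and of Epas1 and Pfkfb4, whose signals were higher there, are printed 5′ to 3′ on the strand of the gene, with the matches on either strand in capitals.
Bnip3 (chr1:203154913-203155212, minus strand): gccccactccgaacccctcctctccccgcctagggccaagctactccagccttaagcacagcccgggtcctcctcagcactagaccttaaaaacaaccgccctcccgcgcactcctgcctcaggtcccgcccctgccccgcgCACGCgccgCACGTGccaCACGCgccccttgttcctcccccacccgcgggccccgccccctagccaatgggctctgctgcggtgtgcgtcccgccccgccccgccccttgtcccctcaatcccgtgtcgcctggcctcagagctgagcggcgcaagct
Hif1a (chr6:98359648-98359947, plus strand): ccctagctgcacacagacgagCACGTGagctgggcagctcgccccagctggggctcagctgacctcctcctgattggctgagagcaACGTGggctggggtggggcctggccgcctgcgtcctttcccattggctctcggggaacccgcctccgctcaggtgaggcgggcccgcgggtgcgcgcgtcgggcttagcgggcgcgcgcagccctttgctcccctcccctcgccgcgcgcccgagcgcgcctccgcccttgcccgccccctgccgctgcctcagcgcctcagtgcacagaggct
Pfkfb3 (chr17:71944683-71944982, plus strand): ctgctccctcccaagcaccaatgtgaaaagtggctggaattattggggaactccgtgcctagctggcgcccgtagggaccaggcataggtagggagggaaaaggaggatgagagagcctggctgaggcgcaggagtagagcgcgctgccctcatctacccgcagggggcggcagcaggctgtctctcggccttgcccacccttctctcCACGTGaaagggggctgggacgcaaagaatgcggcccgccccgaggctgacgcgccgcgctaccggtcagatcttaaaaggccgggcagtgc
Epas1 (chr6:13624680-13624979, minus strand): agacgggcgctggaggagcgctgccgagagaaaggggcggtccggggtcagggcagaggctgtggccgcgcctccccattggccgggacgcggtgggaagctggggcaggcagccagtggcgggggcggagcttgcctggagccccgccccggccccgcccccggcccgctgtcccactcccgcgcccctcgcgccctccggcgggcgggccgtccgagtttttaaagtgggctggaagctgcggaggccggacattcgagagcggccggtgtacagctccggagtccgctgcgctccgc
Pfkfb4 (chr8:118525916-118526215, plus strand): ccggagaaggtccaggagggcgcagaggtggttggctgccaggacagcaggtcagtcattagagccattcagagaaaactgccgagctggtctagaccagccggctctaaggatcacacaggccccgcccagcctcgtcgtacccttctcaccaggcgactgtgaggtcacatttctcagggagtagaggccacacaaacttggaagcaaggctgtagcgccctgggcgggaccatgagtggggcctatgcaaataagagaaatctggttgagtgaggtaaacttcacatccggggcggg
The Bnip3 window held 2 matches to ACGTG, both from 1 CACGTG, and 2 to GCGTG, 1 on either side of it. The Hif1a window held 3 matches to ACGTG, 2 of them from 1 CACGTG, and the Pfkfb3 window held 2, from 1 CACGTG. The Epas1 and Pfkfb4 windows held neither string in these 300 bases. The printed windows do not stand for the rest. Of 5 members that rose in the hypertrophic relative to the proliferative zone and had a window, 3 (Ddit4, Ldhb and Mxi1) held at least 1 of the strings, and of 18 that fell, 15 did, with Tpi1, Pfkfb1 and Pfkfb2 holding none.

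The oxygen-sensing genes changed in both directions in the hypertrophic zone. Hif1a and Epas1 encode the alpha subunits HIF-1α and HIF-2α, which share the same partner and overlapping targets. Epas1 signals were 1997, 1786, 632 and 802 in epiphyseal cartilage and 788, 343, 779, 364 and 450.5 in the resting zone, in order of animal number here and throughout. They were 209, 222, 188, 151 and 243 in the proliferative zone and 411, 315, 459, 444 and 325 in the transition zone. Hypertrophic arrays gave 4301, 4955, 3111, 3955 and 3668. Epas1 was thus lowest in all 5 proliferative arrays, and each hypertrophic array lay above every array of the other zones. The rise was 18.3-fold over the proliferative zone (log2 fold change 4.20 ± 0.25 SE, limma adjusted p = 2.36e-12) and 9.86-fold over the transition zone (3.30 ± 0.25, limma adjusted p = 1.37e-09). By the size of its range between zones, Epas1 ranked 111 of 19213 probe sets. A dimmer Epas1 probe set, above the array median in only 1 array and not tested, differed by 0.24 between the hypertrophic and proliferative zones.

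Epas1 is also expressed in endothelial cells, and markers of cells from bone and marrow were higher in the hypertrophic than in the proliferative arrays. Summed endothelial markers (7 of 8 with a probe set) lay between 900.3 and 2992 in hypertrophic and between 595.4 and 906 in proliferative arrays, and 3 of the 5 tested markers rose. Pecam1 and Tie1 were above the array median in 0 of the 5 arrays of either zone. Resting arrays had endothelial sums between 491.2 and 2057. Relative to the resting zone, 0 of 5 tested endothelial markers were called in the hypertrophic zone. In that comparison 5 of 8 osteoclast and macrophage markers and 5 of 5 erythroid markers were called higher. In epiphyseal cartilage, the Epas1 signals of 1997 and 1786 were in animals 1 and 2, whose endothelial sums were 6081 and 4273, and those of 632 and 802 in animals 4 and 5, whose sums were 736 and 762. The same epiphyseal arrays also differed in osteoclast and macrophage sums, 72279 and 36681 in animals 1 and 2 against 4813 and 4353 in animals 4 and 5. In hypertrophic arrays the endothelial sums were 900.3, 1260, 1322, 2992 and 1618 in order of animal number, beside the Epas1 signals given above. The part of endothelial or other RNA in the hypertrophic and epiphyseal Epas1 values was not tested.

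Hif1a moved less and in the other direction. Its signals were 8591, 10049.8, 5577 and 6502 in epiphyseal cartilage and 11691, 11238, 8852, 5807 and 5616 in the resting zone. They were 7595, 7833, 8050.4, 4294 and 5368 in the proliferative and 8427, 8890.2, 4611, 5005 and 7313 in the transition zone. The hypertrophic signals were 6352, 5633, 4557, 3172 and 4462, overlapping those of every other zone but lower than the proliferative value in all 5 animals. Hif1a fell in the hypertrophic zone relative to the proliferative zone (log2 fold change -0.45 ± 0.15 SE, limma adjusted p = 0.0174), the transition zone (-0.49 ± 0.15, adjusted p = 0.0169) and the resting zone (-0.81 ± 0.15, adjusted p = 8.32e-05). The first of these calls was lost without a replicate block, with a random block and without animal 2 or 3, with an adjusted p of up to 0.171, and the call against the transition zone under 7 of 19 settings. Egln1, the main prolyl hydroxylase, also fell, with 1244, 951, 1571, 1222 and 797 in the hypertrophic zone against 3073, 3029, 3052, 2404 and 3571 in the proliferative zone. All 5 hypertrophic arrays lay below all 5 proliferative ones, and the log2 fold change was -1.40 ± 0.21 SE (limma adjusted p = 1.05e-05). A dim Egln1 probe set, never above the array median, differed by 0.25 in the other direction. Egln3, a hydroxylase that is itself induced by low oxygen in many cells, had signals of 121 to 258 in the hypertrophic and 120.4 to 276 in the proliferative zone, and its log2 difference was -0.12 ± 0.33 SE (adjusted p = 0.809).

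**Figure D3:**
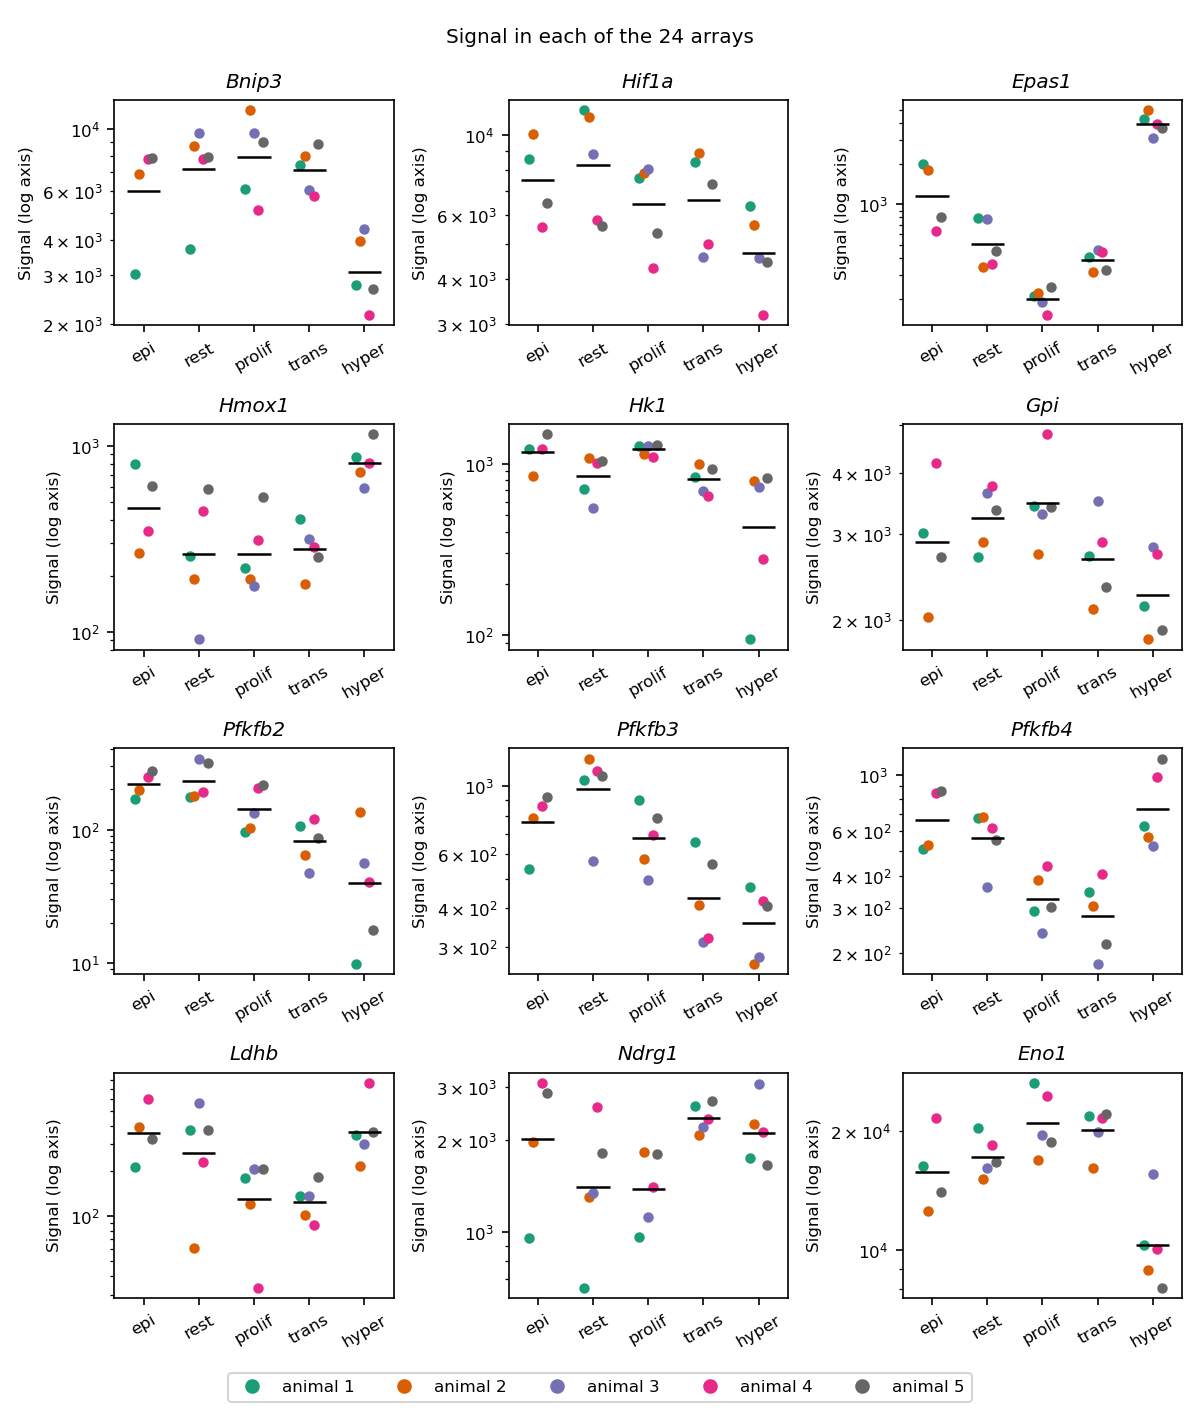
Signal on a log axis in each of the 24 arrays for 12 members, with zones from left to right (epi, epiphyseal; rest, resting; prolif, proliferative; trans, transition; hyper, hypertrophic), points coloured by animal and bars at the mean on the log scale. The Epas1 points form a separate group between 3111 and 4955 in the hypertrophic zone, and the Bnip3 points drop there to between 2153 and 4394.

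Bnip3, which marks mitochondria for removal by autophagy and is a well-known target of HIF-1α, fell in the hypertrophic zone. Its signals were 3024, 6903, 7817 and 7865 in epiphyseal cartilage and 3732, 8696, 9718, 7802 and 7952 in the resting zone. They were 6098, 11694, 9665, 5133 and 8971 in the proliferative zone and 7453, 8029.5, 6046, 5758 and 8878 in the transition zone. The hypertrophic signals were 2766, 3976, 4394, 2153 and 2667. All hypertrophic arrays lay below all proliferative and transition arrays, while epiphyseal and resting cartilage each held 1 low array, both from animal 1. The fall was 2.57-fold relative to the proliferative zone (log2 fold change -1.36 ± 0.21 SE, limma adjusted p = 1.63e-05) and 2.31-fold relative to the transition zone (-1.21 ± 0.21, adjusted p = 0.000201). Bnip3 did not pass the test between any earlier neighbouring zones, with log2 differences of 0.21, 0.14 and -0.16. Its relative Bnip3l, a mitophagy receptor best known from maturing red cells, fell as well, with 4488, 5926, 4950.5, 5280.2 and 4541 in the hypertrophic against 8323, 9772, 9739, 5967 and 7868 in the proliferative zone. Those 2 sets of arrays did not overlap (log2 fold change -0.71 ± 0.13 SE, limma adjusted p = 0.000162), and a second tested probe set fell by 0.59. Summed erythroid markers ran the other way, from 10034 to 35835 in hypertrophic and from 2404 to 6643 in proliferative arrays, and their part in the Bnip3l values was not tested.

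Glucose entry and the upper steps, which trap glucose and split it into triose phosphates, had 8 tested members. Of these, 7 fell and 0 rose in the hypertrophic relative to the proliferative zone by limma. All 8 had a negative log2 fold change, so that 0 rose at an unadjusted p below 0.05 as well. Of all 19213 tested probe sets, 20.5% fell and 16.9% rose in that comparison, and 9015 had a positive log2 fold change. Hk1, which phosphorylates glucose, had signals of 1219, 843, 1222 and 1477 in epiphyseal cartilage and 713, 1077, 551, 1006 and 1031 in the resting zone. They were 1269.8, 1130.4, 1271, 1098 and 1284 in the proliferative zone and 838, 992, 695, 645 and 926 in the transition zone. Signals in hypertrophic arrays were 94.6, 797, 733, 278 and 826. The proliferative arrays of Hk1 lay in a narrow band and above all hypertrophic arrays, of which animals 1 and 4 were far lower than the rest (log2 fold change -1.47 ± 0.34 SE, limma adjusted p = 0.00112). A second tested Hk1 probe set moved the same way by -0.90 and missed the threshold (adjusted p = 0.066). Hk2, the isoform of insulin-sensitive tissue, was dim, with signals of 43.2 to 111 in the hypertrophic and 56.7 to 187 in the proliferative zone.

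Gpi, which turns glucose 6-phosphate into fructose 6-phosphate, began to fall earlier. Its signals were 3013, 2030.0, 4184 and 2693 in epiphyseal cartilage and 2689.5, 2886, 3634, 3762 and 3354 in the resting zone. They were 3418, 2722, 3299, 4789.5 and 3409.8 in the proliferative and 2704, 2099.6, 3498, 2882 and 2335 in the transition zone. The hypertrophic signals were 2132, 1824, 2814, 2722 and 1909.6. The transition arrays were lower than the proliferative ones in 4 of 5 animals (log2 fold change -0.38 ± 0.13 SE, limma adjusted p = 0.0341), a call lost under 10 of 19 alternative settings, and the hypertrophic arrays were lower in all 5 animals (-0.62 ± 0.13, adjusted p = 0.00036). Zones overlapped in both comparisons.

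The phosphofructokinases, which take the committed step, all fell in the hypertrophic relative to the proliferative zone. Pfkm, the muscle-type subunit, averaged 969.6 ± 119 in the hypertrophic and 1832 ± 357 in the proliferative zone (SD, n = 5 each, log2 fold change -0.89 ± 0.12 SE, limma adjusted p = 2.70e-06). A dimmer tested Pfkm probe set changed by -0.50 (adjusted p = 0.532), and the call was lost when the probe sets were averaged. Pfkp, the platelet-type subunit, averaged 688 ± 277 in the hypertrophic and 1515 ± 275 in the proliferative zone (-1.18 ± 0.25, adjusted p = 0.000532). Pfkl, the liver-type subunit, changed least (-0.57 ± 0.19, adjusted p = 0.021) and lost its call under 6 of 19 settings. Aldoa, the aldolase of most tissues, averaged 10897 ± 2266 in the hypertrophic and 17336 ± 3881 in the proliferative zone (-0.66 ± 0.14, adjusted p = 0.000626), and Tpi1, which interconverts the triose phosphates, 13709 ± 2139.7 and 23077 ± 3395 in the same zones (-0.75 ± 0.15, adjusted p = 0.00034).

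Aldoc, the brain-type aldolase, had a course of its own. Its signals were 942, 1542, 1756, 2020.0 and 1958 in the resting, 3577, 2550.4, 2827, 3886 and 3276 in the proliferative and 4340.5, 3504, 5116, 4688 and 4791 in the transition zone. Hypertrophic cartilage gave 2714, 2527, 3820.5, 1793 and 3162. No proliferative array overlapped the resting ones, and the transition zone held the highest mean. Aldoc was the only member that rose in the proliferative relative to the resting zone (log2 fold change 1.00 ± 0.23 SE, limma adjusted p = 0.00348), where 6.4% of all probe sets rose. It fell in the hypertrophic relative to the transition zone (-0.71 ± 0.23, adjusted p = 0.0252), a call lost under 6 of 19 settings, and rose relative to the resting zone (0.77 ± 0.23, adjusted p = 0.00792).

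All 4 tested members of the lower steps, which harvest ATP from the trioses, fell in the hypertrophic relative to the proliferative zone. In none did the arrays of those 2 zones overlap. Of all tested probe sets, 20.5% fell in that comparison and 9.98% separated downward. Eno1, the enolase of most tissues, had signals of 10304, 8933, 15553, 10092 and 8054 in the hypertrophic and 26370.0, 16882, 19456, 24372 and 18694 in the proliferative zone (log2 fold change -1.02 ± 0.14 SE, limma adjusted p = 4.55e-06). Pgam1, phosphoglycerate mutase, averaged 14717 ± 2849 in the hypertrophic and 26312 ± 4098 in the proliferative zone (SD, n = 5 each, -0.85 ± 0.14, adjusted p = 4.17e-05). Pgk1, which makes the first ATP, averaged 19897 ± 3608 and 36533 ± 9587 in those zones (-0.86 ± 0.18, adjusted p = 0.000647), and a second tested probe set fell by 1.13. Gapdh, read only from a control probe set at the 3′ end of its transcript, had signals of 21089.6, 16408, 20108, 16272 and 13139 in the hypertrophic and 38909, 25370.4, 22584, 34586 and 33389 in the proliferative zone, without overlap and without a test. The log2 ratio of 3′ to 5′ Gapdh signal, a measure of RNA integrity, was 2.96 ± 0.54 in hypertrophic and 2.67 ± 0.34 in proliferative arrays (SD, n = 5 each). Its part in these values was not tested.

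Eno2, the neuronal-type enolase, was highest in the resting zone. Its signals were 4859, 6612, 12731 and 13724 in epiphyseal cartilage and 5743, 12681, 14615, 16346 and 15094 in the resting zone. They were 5400.4, 6224, 8032, 6597 and 7478 in the proliferative and 5791, 4464, 7141, 4848 and 4377 in the transition zone. The 5 hypertrophic arrays read 2856, 2505, 4562, 1932 and 2126. The resting array of animal 1 was far below the other 4, and the hypertrophic arrays lay below all proliferative ones. Eno2 fell in the proliferative relative to the resting zone (log2 fold change -0.86 ± 0.23 SE, limma adjusted p = 0.0138), and in the hypertrophic relative to the resting zone it fell 4.53-fold (-2.18 ± 0.23, adjusted p = 4.58e-08), the largest fall of any tested member in the 6 comparisons. The first of these calls was lost without animal 2, 3 or 4.

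At the fate of pyruvate, the lactate dehydrogenases diverged between the hypertrophic and proliferative zones. Ldha, the subunit that favours lactate formation, had signals of 18706, 16746, 22713, 12157 and 16146 in the hypertrophic and 37267, 26873, 22497, 25039.7 and 25479.5 in the proliferative zone. Ldha was lower in the hypertrophic zone in 4 of 5 animals (log2 fold change -0.67 ± 0.17 SE, limma adjusted p = 0.00239). Ldhb, the heart-type subunit, had signals of 213, 392, 597 and 323 in epiphyseal cartilage and 374, 61.7, 565, 227 and 373 in the resting zone. They were 179, 121, 205, 33.4 and 205 in the proliferative and 136, 102, 135, 87.5 and 181 in the transition zone. Hypertrophic arrays gave 348, 216, 299.7, 769 and 362, each above every proliferative and transition array. Between the hypertrophic and resting zones neither gene was called, with log2 differences of 0.45 for Ldhb and -0.36 for Ldha (limma adjusted p = 0.426 and 0.0871). Ldhb rose relative to the proliferative zone (1.39 ± 0.43, limma adjusted p = 0.012) and the transition zone (1.43 ± 0.43, adjusted p = 0.0164). It was above the array median in only 3 of 5 proliferative and 1 of 5 transition arrays, so the sizes of these rises are less certain. Both calls were lost without the hypertrophic array of animal 4 and without animal 4, with an adjusted p of up to 0.14 and 0.066 and a log2 fold change down to 0.74 and 1.06. That array held the highest summed osteoblast markers, 122012 against 23056 to 38688 in the other hypertrophic arrays, and the highest osteoclast and macrophage markers, 89236 against 10842 to 16266.

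Pdk1, the kinase that closes pyruvate dehydrogenase and so keeps pyruvate out of mitochondria, had signals of 1539.5, 822, 1378, 532 and 569.5 in the hypertrophic and 2268, 2495, 2368, 993 and 2430.4 in the proliferative zone. The proliferative array of animal 4 was less than the 2 highest hypertrophic arrays, so the zones overlapped (log2 fold change -1.17 ± 0.24 SE, limma adjusted p = 0.000395). Relative to the transition zone Pdk1 fell by 1.28 (SE 0.24, adjusted p = 0.000377), the largest fall in that comparison, and a second tested probe set fell by 1.02. Pdk2 was dim in every zone, with signals of 32.8 to 172 in the hypertrophic and 33.7 to 148 in the proliferative zone.

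The 4 Pfkfb genes encode enzymes that make and remove fructose 2,6-bisphosphate, the strongest activator of phosphofructokinase, and they split in the same comparison. Pfkfb3, the isoform with the strongest kinase, had signals of 539, 788, 864 and 921 in epiphyseal cartilage and 1049, 1228, 570.4, 1123 and 1077 in the resting zone. They were 903, 579.6, 495, 692 and 785 in the proliferative and 656, 409, 311, 321 and 556 in the transition zone. The hypertrophic signals were 470.0, 264, 277, 424 and 408. Pfkfb3 was lower in all 5 animals in the transition than in the proliferative zone (log2 fold change -0.63 ± 0.20 SE, limma adjusted p = 0.0226), a call lost under 6 of 19 settings, and all hypertrophic arrays lay below all proliferative ones (-0.88 ± 0.20, adjusted p = 0.000855). The 2 dimmer Pfkfb3 probe sets were not tested and differed by 0.21 and 0.23 in the other direction.

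Pfkfb4, the testis-type isoform and a known hypoxia target, went the other way. Its signals were 509.5, 529.6, 848 and 861 in epiphyseal cartilage and 679, 680.3, 363, 619 and 554 in the resting zone. They were 291, 386, 240.2, 439.6 and 304 in the proliferative and 345, 305, 182, 406 and 216 in the transition zone. Signals in hypertrophic arrays were 629, 569.6, 524, 982 and 1157. Every hypertrophic array lay above every proliferative and transition array, while the hypertrophic values overlapped the epiphyseal and resting ones. Pfkfb4 rose relative to the proliferative zone (log2 fold change 1.14 ± 0.20 SE, limma adjusted p = 7.84e-05) and the transition zone (1.35 ± 0.20, adjusted p = 2.97e-05), and its difference from the resting zone was 0.37 ± 0.20 (adjusted p = 0.151).

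Pfkfb2, the heart-type isoform, was dim, with signals of 169, 198, 246 and 274 in epiphyseal cartilage and 174, 179, 339.6, 189.6 and 316 in the resting zone. They were 95.8, 103, 134, 204 and 215 in the proliferative and 106, 64.5, 47.4, 120.2 and 86.7 in the transition zone. Hypertrophic cartilage gave 9.90, 135, 56.0, 40.7 and 17.8. It was above the array median in 0 of 5 hypertrophic and 2 of 5 proliferative arrays, so the size of its difference is not given (limma adjusted p = 0.00397). Animal 2 alone was higher in the hypertrophic than in the proliferative zone. The 3 further Pfkfb2 probe sets were too dim to test and differed by between -0.35 and 0.35. Pfkfb1, the liver-type isoform, was likewise dim, with signals of 15.9 to 170.1 in the hypertrophic and 129 to 272 in the proliferative zone. It was above the array median in 0 of 5 hypertrophic and 4 of 5 proliferative arrays, and its call (limma adjusted p = 0.00943) was lost without animal 1 or 2.

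**Figure D4:**
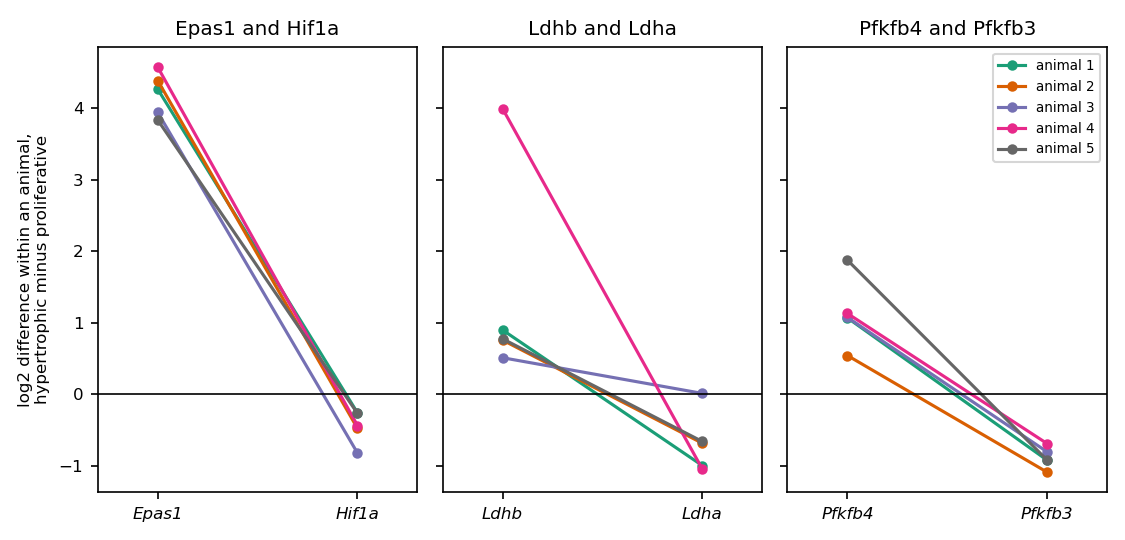
Log2 difference between the hypertrophic and the proliferative array of each animal (y axis) for 3 pairs of related genes, with 1 line per animal. Epas1, Ldhb and Pfkfb4 lie above 0 in all 5 animals, while Hif1a and Pfkfb3 lie below 0 in all 5 and Ldha in 4 of 5.

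The divergence within gene families was set out animal by animal in 5 pairs, 3 between the hypertrophic and proliferative zones and 2 between the proliferative and resting zones. The log2 change of Epas1 exceeded that of Hif1a by 4.65 ± 0.35 (SD, n = 5 animals), that of Pfkfb4 exceeded that of Pfkfb3 by 2.02 ± 0.45, and that of Ldhb exceeded that of Ldha by 2.06 ± 1.74. Each difference was positive in 5 of 5 animals, and for Ldhb it ranged from 0.50 to 5.03, the highest in animal 4. Between the proliferative and resting zones, the change of Aldoc exceeded that of Aldoa by 0.96 ± 0.35, and that of Eno2 was below that of Eno1 in 5 of 5 animals (-1.14 ± 0.44). The pairs were chosen with earlier results known, so these differences are a description and were not tested.

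Among the hypoxia-induced genes outside metabolism, 4 of 7 rose in the hypertrophic relative to the proliferative zone, where 16.9% of all tested probe sets rose. Hmox1, which breaks down heme, had signals of 797, 265, 346 and 610.2 in epiphyseal cartilage and 254, 192, 90.7, 446 and 582 in the resting zone. They were 219, 192, 177, 310.4 and 532 in the proliferative and 405, 181, 316, 286 and 252 in the transition zone. The 5 hypertrophic arrays read 872, 723, 589, 806 and 1149.8, each above every proliferative, transition and resting array. The rise was 2.96-fold (log2 fold change 1.56 ± 0.29 SE, limma adjusted p = 0.000112). Heme-handling macrophages also express Hmox1, and all 8 tested osteoclast and macrophage markers rose, with sums of 10842 to 89236 in hypertrophic and 1261 to 3139 in proliferative arrays (10 of 12 with a probe set). Their part, and that of the erythroid markers, of which 5 of 5 tested rose, was not tested.

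Ddit4, an inhibitor of mTOR signalling, had signals of 752, 919.7, 712, 938 and 708 in the hypertrophic and 543, 277, 420.0, 430.2 and 473 in the proliferative zone, without overlap (log2 fold change 0.91 ± 0.22 SE, limma adjusted p = 0.00197). Its resting signals were 556, 682, 1344, 568 and 798, above every proliferative array, and the hypertrophic zone differed from the resting zone by 0.10 ± 0.22 (adjusted p = 0.758). Mxi1, which antagonises Myc, rose by 0.65 ± 0.20 SE (adjusted p = 0.0131) and was higher in 4 of 5 animals, a call lost under 3 of 19 settings. Its second, dimmer probe set also rose, by 1.35 (adjusted p = 0.0277).

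Ndrg1, a stress-induced gene named for its regulation by N-myc, changed at the transition zone. Its signals were 955, 1971, 3093 and 2862 in epiphyseal cartilage and 654, 1300.0, 1337, 2575 and 1816 in the resting zone. They were 964, 1834, 1114, 1399 and 1801 in the proliferative and 2584, 2081, 2215, 2342 and 2694 in the transition zone. Hypertrophic arrays gave 1749, 2258, 3072, 2122 and 1662. No transition array overlapped the proliferative ones (log2 fold change 0.78 ± 0.24 SE, limma adjusted p = 0.0201), whereas the hypertrophic and proliferative arrays overlapped (0.62 ± 0.24, adjusted p = 0.0433), and this last call was lost under 8 of 19 settings.

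Adm, which encodes the vasodilator adrenomedullin, was highest in the resting zone, with signals of 287, 602, 593, 900.0 and 1268 there. They were 539, 638, 713, 178 and 307 in the hypertrophic and 210.3, 112, 159.8, 227 and 352 in the proliferative zone. The arrays of the hypertrophic and proliferative zones overlapped, and that difference missed the threshold (log2 fold change 1.04 ± 0.46 SE, limma adjusted p = 0.0823), while without the hypertrophic array of animal 4 it passed (1.32, adjusted p = 0.0312). Ankrd37, a small ankyrin repeat protein induced by HIF-1α, differed little between those zones (-0.17 ± 0.19, adjusted p = 0.519) and fell in both relative to the resting zone, with -0.89 ± 0.19 for the hypertrophic and -0.73 ± 0.19 for the proliferative zone (adjusted p = 0.00038 and 0.00876). Bhlhe40, a repressor of the circadian clock, was dim, at 75.3 to 325 in the hypertrophic and 68.0 to 203 in the proliferative zone, and differed by 0.36 ± 0.27 (adjusted p = 0.312).

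In the hypertrophic relative to the transition zone, 15 members fell and 5 rose, where 11% of all probe sets fell and 11.5% rose (22.4% in either direction). The 5 that rose were Epas1, Hmox1, Ldhb, Pfkfb4 and Ddit4, each at least 2-fold, and the falls of at least 2-fold were those of Pdk1, Bnip3 and Egln1, against backgrounds of 6.78% and 2.49%. Of the 19 glycolysis members, 11 fell and 2 rose. Of the 13 hypoxia members, 4 fell and 3 rose. In 12 members the 2 zones did not overlap, 7 of them lower and 5 higher, against 4.65% and 6.78% of probe sets. The median log2 fold change of the members was -0.48, against 0.02 over all probe sets. With the arrays scaled to one median, these medians became -0.75 and -0.24, the members that fell became 19, and the share of all calls that were rises moved to 24.4%, against 51.1% without that scaling.

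Between the transition and proliferative zones, Epas1 and Ndrg1 rose and Pfkfb3 and Gpi fell, 4 of 32 members, where 8.85% of probe sets rose and 12.5% fell (21.3% in either direction). None of the 4 reached a fold of 2, where 3.11% of probe sets rose and 5.31% fell by that much. Epas1 and Ndrg1 separated upward without overlap and Hk1 downward, against 5.67% and 7.14% of probe sets. The Epas1 rise was 1.86-fold (log2 fold change 0.89 ± 0.25 SE, limma adjusted p = 0.0103), held in 5 of 5 animals and kept its call under all 19 settings tried. With the arrays scaled to one median, Pfkfb3 and Gpi were no longer called, and the share of all calls that were rises became 60.7%, against 41.5%. Without a replicate block only Epas1 was called.

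Between the proliferative and resting zones, 6 members fell and 1 rose, where 7.55% of probe sets fell and 13.9% changed in either direction. Those that fell were Adm (-1.64 ± 0.46 SE, limma adjusted p = 0.0182), Epas1 (-1.28 ± 0.25, 0.000683), Eno2, Ddit4 (-0.81 ± 0.22, 0.0135), Pfkfb4 (-0.77 ± 0.20, 0.0111) and Ankrd37, and each was lower in 5 of 5 animals. Markers of some other cell types were lower in the proliferative zone too, namely 5 of 8 skeletal muscle, 3 of 4 leukocyte and 1 of 8 osteoclast and macrophage markers. Of the endothelial, erythroid and osteoblast markers, 0 of 5, 0 of 5 and 0 of 3 were called lower. The part of these cell types in the falls of the members was not tested. Adm and Epas1 fell by at least 2-fold, as did 4.12% of probe sets, and 0 members rose that far (1.97% of probe sets; limma, with Aldoc the 1 member higher at an unadjusted p below 0.05). All 5 proliferative arrays of Epas1, Ddit4 and Ankrd37 lay below all resting arrays, and those of Aldoc and Hk1 above them, 5 members in all, against 5.54% of probe sets lower and 3.79% higher. Only 3 members were called without animal 2 and 4 without animal 3. Scaled to one median, the share of all calls that were rises became 57.3%, against 45.9%, and all 7 member calls held.

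Between the resting zone and epiphyseal cartilage, 1 member, Epas1, passed the test, where 1.37% of probe sets fell and 1.14% rose (2.51% in either direction). Its fall was over 2-fold, and 0.859% of all tested probe sets fell by at least 2-fold. Epas1 was lower in the resting zone in all 4 animals that had both zones (log2 fold change -1.19 ± 0.26 SE, limma adjusted p = 0.0117). The call was lost without animal 1, without animal 2 and without the epiphyseal arrays of both, with an adjusted p of up to 0.485. The second tested Bnip3l probe set, which is not counted here, was higher in the resting zone (0.595, limma adjusted p = 0.0451). The Bnip3l probe set that is counted was not called (0.37, adjusted p = 0.214). At an unadjusted p below 0.05, 7 members differed, and Ddit4 was the 1 member whose zones did not overlap, at 556, 682, 1344, 568 and 798 in the resting zone against 511, 381, 540.4 and 432 in epiphyseal cartilage (0.65 ± 0.24, adjusted p = 0.17), where 2.64% of probe sets separated upward and 2.28% downward.

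Against the resting zone, which shares its label wording, the hypertrophic zone had 19 members lower and 4 higher, where 23% of probe sets were lower and 18.4% higher (41.4% in either direction). A fold of at least 2 was reached by 8 of the falls and 2 of the rises, against backgrounds of 11.8% and 9.32%. Without Pfkfb1 and Pfkfb2, 17 members fell, 6 of them at least 2-fold. The 4 that rose were Epas1 (2.91 ± 0.25 SE, limma adjusted p = 8.29e-10), Hmox1 (1.57 ± 0.29, 8.93e-05), Aldoc and Ndrg1, and the Ndrg1 call (0.59, adjusted p = 0.0467) was lost under 9 of 19 settings. Egln1 fell by 1.75 on the log2 scale. In 13 members the zones did not overlap, 11 lower and 2 higher, against 13% and 10.3% of probe sets. Over the 3 comparisons of the hypertrophic zone, which share its arrays, 13 members fell in each and 2, Epas1 and Hmox1, rose in each, where 5.58% of all probe sets fell and 5.6% rose in each. The 13 were Pfkm, Pfkp, Aldoa, Tpi1, Pgk1, Pgam1, Eno1, Eno2, Pdk1, Hif1a, Egln1, Bnip3 and Bnip3l. Some settings lost the hypertrophic against transition call of Hif1a, Bnip3l, Pgk1, Pfkp and Pfkm. The second tested Bnip3l probe set missed the threshold in that comparison (-0.32, limma adjusted p = 0.127).

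Other genes of these pathways, taken from lists drawn up with earlier results known, were divided. Of 18 tested sugar and lactate carriers and further glycolysis genes, 5 rose and 5 fell in the hypertrophic relative to the proliferative zone, where 16.9% of all probe sets rose and 20.5% fell, with a median log2 fold change of -0.21, against -0.05 over all probe sets. Slc16a3, the carrier that exports lactate, fell by 1.34 (limma adjusted p = 0.000139), and Gbe1, which branches glycogen, fell by 1.15 (adjusted p = 4.11e-05). Pdhb, a subunit of pyruvate dehydrogenase, rose by 0.72 (adjusted p = 3.70e-05), and Bpgm, which makes 2,3-bisphosphoglycerate and is abundant in red cells, by 1.04 (adjusted p = 0.000164). Of 8 regulators of the factors, Siah2, a ubiquitin ligase that targets prolyl hydroxylases, was the 1 called. It rose in the hypertrophic (0.63, adjusted p = 0.011) and in the transition zone (1.51, adjusted p = 2.73e-06) relative to the proliferative zone. Of 25 further hypoxia-induced genes, 8 rose and 12 fell against the same background, with a median of -0.34. Car9, the carbonic anhydrase widely used as a marker of low oxygen, averaged a signal of 69.8 in the hypertrophic zone and 1907 in the proliferative zone. All 5 hypertrophic arrays were below the array median for Car9 and all 5 proliferative arrays above it. Car9 thus passed the filter through other zones, so its fall, counted among the 12, is no support and no fold change is given. Lox, which crosslinks collagen, rose by 3.47 (adjusted p = 6.86e-11). Plod1 and Mif fell by 1.19 and 1.71.

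Markers of the cell types that a dissected zone could hold were read beside these counts. All 8 hypertrophy markers rose in the hypertrophic relative to the proliferative zone, and of 8 chondrocyte markers 1 fell and 7 were not called. Besides the erythroid, endothelial and osteoclast markers above, 3 of 3 osteoblast, 3 of 4 leukocyte and 3 of 8 skeletal muscle markers rose, and 1 skeletal muscle marker, Tnnt3, fell. The part of these cells in the falls of the glycolytic members was not tested.

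**Figure D5:**
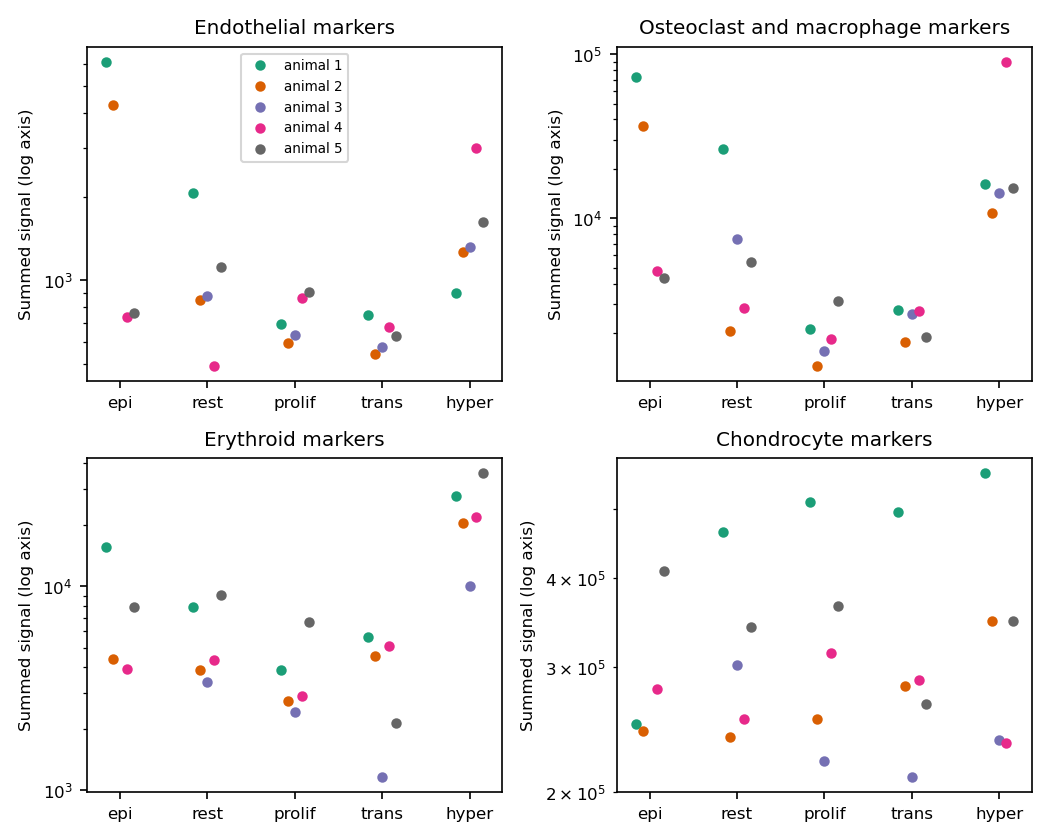
Summed signal on a log axis of 4 marker lists in each of the 24 arrays, with zones from left to right (abbreviated as epi, rest, prolif, trans and hyper) and points coloured by animal. Erythroid and osteoclast sums are higher in all 5 hypertrophic than in all 5 proliferative arrays, endothelial sums overlap by a single pair (900.3 and 906), and the chondrocyte sums of the 2 zones overlap.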

How the data were processed

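Total RNA of dissected cartilage (50 to 100 ng) went through 2 rounds of amplification before biotin labelling, per the labels' protocols. The authors deposited linear intensity values, MAS5 signals, per the submitters' processing notes, and no source used here names the MAS5 version. The trimmed mean signal was 500.1 to 500.2 in every array. Of 31099 probe sets, 57 controls were set aside and 19213 exceeded the array median in at least 4 arrays.

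Zones were compared on log2(signal + 16) by limma 3.58.1 (R 4.3.3; linear model with zone and animal, trended eBayes, all 24 arrays), adjusted by Benjamini-Hochberg over the 19213 probe sets. Every fit and adjusted p in the report is limma's. A call is an adjusted p below 0.05. The labels tie each number to 1 animal, hence the block. Same-numbered arrays deviated together at a median r of 0.176 over 46 pairs (-0.142 to 0.36), against -0.046 over 184 other pairs. Arrays of 1 zone shared at most 50 identical values.

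Given with every array, by rule, were the called members with the 4 largest changes in each comparison among the proliferative, transition and hypertrophic zones, plus Bnip3 and Hif1a. Array values of further members, such as Eno2 and Aldoc, were added after their values were seen. Of the wider lists, genes with the 4 smallest adjusted p in a comparison could be named. The members and lists were chosen with earlier results of these data known. Probe sets were named by the platform annotation, and promoters are RefSeq's (GRCr8).

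On simulated data over 19213 probe sets, the hypertrophic against proliferative test recovered 53 of 100 probe sets changed 2-fold and 94 of 100 changed 4-fold, with 7 false calls. No other probe sets were changed there, whereas 37.4% were called in the data. These figures therefore do not give the recovery or the false calls in the data. Alternatives were pseudocounts of 1 and 64, quantile normalization, one median, no filter or a 75th percentile filter, no block or a random block, only the zones compared, array weights, averaging the probe sets of a gene, a required fold of 2 and leaving out each animal. Chosen after seeing the data were settings without single arrays (transition of animal 5, or hypertrophic of animal 4) or without a pair (epiphyseal of animals 1 and 2).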

Additional observations from a re-analysis of the deposited data

Results flagged for a closer look

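In 11 of 175 zone groups of 4 or 5 arrays, 1 array of a member lay far from the others by Dixon's criterion at its 95% critical value, and chance alone marks about 1 in 20 groups. Animal 1 gave 5 of them: Bnip3 was 3024 in its epiphyseal array (others 6903 to 7865) and 3732 in its resting array (others 7802 to 9718), Eno2 was 5743 in its resting array (others 12681 to 16346), Egln3 was 31.2 in its resting array (others 182 to 274) and Mxi1 was 439 in its epiphyseal array (others 779 to 866.5). Animal 3 gave 3: Pfkfb3 at 570.4 in the resting zone (others 1049 to 1228), Hk2 at 56.7 in the proliferative zone (others 135 to 187) and Egln3 at 258 in the hypertrophic zone (others 121 to 146). Animal 2 gave 2: Pdk2 at 18.4 in the resting zone (others 96.4 to 165) and Ankrd37 at 267.6 in the proliferative zone (others 487 to 574). In animal 4, Pdk1 was 992.7 in the proliferative zone (others 2268 to 2495).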

How the results depend on the processing

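Over the 6 comparisons, 82 calls of members were made. Under each of up to 19 alternative settings, not counting the required fold of 2, 56 of them held. The other 26 were lost under at least 1, and 0 changed direction. The counts of members that differed across 5 zones (28) ran from 25 to 28 and across 3 zones (29) from 25 to 30. A required fold of 2 left 13 of 27 members in the hypertrophic against the proliferative zone, 10 of 23 against the resting zone, 8 of 20 against the transition zone, 2 of 7 in the proliferative against the resting zone and 0 of 4 in the transition against the proliferative zone (limma, where 6 passed at an unadjusted p below 0.05). In the transition against the proliferative zone, scaling to one median left 2 and dropping the replicate block left 1 of the 4 calls. In the resting zone against epiphyseal cartilage, using only the zones compared gave 2 calls, and leaving out the epiphyseal arrays of animals 1 and 2 gave 0 (3 members at an unadjusted p below 0.05). Leaving out 1 animal at a time, the counts ran from 23 to 26 for the hypertrophic against the proliferative zone, 20 to 23 against the resting zone and 16 to 21 against the transition zone. They ran from 3 (without animal 2) to 6 for the proliferative against the resting zone, from 2 (without animal 1, 3 or 5) to 4 for the transition against the proliferative zone and from 0 (without animal 1 or 2, with 4 and 2 members at an unadjusted p below 0.05) to 1 for the resting zone against epiphyseal cartilage. Without the replicate block, the hypertrophic counts were 24 against the proliferative, 22 against the resting and 17 against the transition zone, and 6 members were called in the proliferative against the resting zone and 1 in the resting zone against epiphyseal cartilage. The cause of these changes was not tested. Dim members, among them Pfkfb1, Pfkfb2 and Ldhb, were dropped by the stricter filter.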

Other observations

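In epiphyseal cartilage, animal 1 gave the lowest of the 4 arrays in 20 of 32 members, against 28.1% of all tested probe sets, and in the resting zone it gave the lowest of 5 arrays in 13 of 32, against 21%. Its epiphyseal array had an osteoclast and macrophage marker sum of 72279 and its resting array one of 26630.5, each the highest of its zone. In epiphyseal cartilage, animals 4 and 5 gave the highest array in 13 and 14 of 32 members, against 21.9% and 34% of all tested probe sets. Adm, for instance, was 142.8 and 193.1 in animals 1 and 2 and 647 and 659 in animals 4 and 5.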
